A study of Mus musculus with 4 samples.

Results

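The genes described here are 9 transcription factors that pattern the neural tube or drive the birth of neurons: Nkx2-2, Nkx6-1, Olig2, Olig3, Pax6, Pax7, Neurog1, Neurog2 and Sox2. They were found by gene name among the 41174 probes outside the control types on 2-colour arrays of mouse embryo RNA, which gave 12 probes. All 9 genes were among the 17161 genes tested, through 10 probes that Feature Extraction, the scanner software, called well above background. The other 2 probes, the second for Olig2 and the third for Pax6, were not well above background in any of 8 channels and were not tested. The embryos were C57BL/6J mice, either NRX-/-, that is lacking nucleoredoxin (gene Nxn) and called null here, or NRX+/+, called wild type. They were taken at 2 embryonic stages, named E9.5 and E11.5 for the day of gestation. A stage had a pair of arrays on which both genotypes were hybridised together with the dyes swapped: the null sample was labelled with Cy5 on replicate 1 and with Cy3 on replicate 2. The number of embryos behind each RNA, and whether the arrays of a stage held separate extracts, are not given in the sources used here, so the spread between arrays may be technical.

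In the neural tube, Sonic hedgehog from the floor plate and Wnt and BMP signals from the roof plate divide progenitors into domains along the dorsal-ventral axis. Each domain is marked by its own set of homeodomain and basic helix-loop-helix (bHLH) factors, many of which repress the factor of the neighbouring domain. Nkx2-2 marks the most ventral progenitors next to the floor plate, Olig2 the motor neuron progenitors, and Nkx6-1 the ventral progenitors as a whole. Pax6 is strongest in intermediate progenitors, Pax7 marks dorsal progenitors, and Olig3 the most dorsal ones. Neurog1 and Neurog2 are proneural bHLH factors that start neuronal differentiation, and Sox2 keeps cells in the progenitor state. Nucleoredoxin is a thioredoxin-related protein that binds Dishevelled, a component of Wnt signalling.

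The start-site sequences of the 3 members whose genotype ratio passed the test at a stage are shown first, because these are the genes on which the comparison of genotypes turns. RefSeq's promoter table for GRCm38.p6, in which a window of 300 bases spans the start of a gene, held 10 windows for the 9 members, with a pair for Pax6. Capitals mark CANNTG, the E-box that bHLH factors such as Olig and Neurog proteins bind. The windows lie at chr10:19356289-19356588 on the + strand (Olig3), chr16:91225300-91225599 on the + strand (Olig2) and chr5:101664662-101664961 on the - strand (Nkx6-1).
Olig3: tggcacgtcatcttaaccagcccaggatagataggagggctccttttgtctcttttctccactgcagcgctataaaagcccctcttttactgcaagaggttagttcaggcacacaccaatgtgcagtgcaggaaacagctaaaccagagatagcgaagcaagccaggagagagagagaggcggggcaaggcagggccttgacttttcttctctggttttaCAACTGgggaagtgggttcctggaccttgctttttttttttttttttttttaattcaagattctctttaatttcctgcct
Olig2: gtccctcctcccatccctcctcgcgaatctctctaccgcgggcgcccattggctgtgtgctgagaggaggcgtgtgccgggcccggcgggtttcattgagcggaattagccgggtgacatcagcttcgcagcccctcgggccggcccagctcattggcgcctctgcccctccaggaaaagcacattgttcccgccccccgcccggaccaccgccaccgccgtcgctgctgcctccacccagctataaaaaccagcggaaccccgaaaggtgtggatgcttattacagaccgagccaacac
Nkx6-1: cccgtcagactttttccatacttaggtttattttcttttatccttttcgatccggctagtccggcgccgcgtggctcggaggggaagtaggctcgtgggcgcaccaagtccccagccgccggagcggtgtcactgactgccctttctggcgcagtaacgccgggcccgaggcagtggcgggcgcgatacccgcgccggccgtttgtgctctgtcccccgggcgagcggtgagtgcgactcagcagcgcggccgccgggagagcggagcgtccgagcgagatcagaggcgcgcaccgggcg
Only Olig3 among these 3 had an E-box, with 1 match. Over all members 5 of 10 windows had a match, against 72.3% of 32851 windows of the same length in the table. The TCF/LEF motif (CTTTGAT or CTTTGAA, searched on both strands), through which Wnt signalling acts, was in 0 of the 10 windows and in 8.65% of all windows. The homeodomain motif TAATTA was in 1 of the 10, that of Neurog1, and in 5.29% of all. No E-box match overlapped a match of another motif in the members' windows. These counts describe letters in the windows and were not set against binding data.

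The targeted gene was lower in the samples labelled null, in the direction of the labels, but not absent. The log2 ratio of null over wild type for Nxn averaged -0.99 in the E9.5 arrays and -1.33 in the E11.5 arrays (limma adjusted p of 4.5e-10 and 2.0e-11), so 50.4% and 39.8% of the wild-type signal remained. The position of this probe relative to the deleted part of the gene is unknown here. Each array held 43379 spots outside the control types. With replicate spots averaged, between 48.1% and 70.3% of the probes were well above background in a channel. All 4 arrays came from 1 slide and 1 scan, so no batch could be separated. Whole embryos were measured, and in such bulk RNA fewer cells of a type and less RNA per cell cannot be told apart. Markers of other tissues moved with genotype at E9.5. All 8 visceral yolk sac markers and all 9 heart muscle markers were called lower in the null, against 14.8% of all genes tested. Of 10 markers of post-mitotic neurons 9 were called higher, against 9.88% of all genes. These values stand beside the members' results below.

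At E9.5 the null embryos had more Olig3 RNA, 1.42-fold, and slightly less Olig2 RNA, 1.14-fold, than wild type, and the other 7 members did not pass the test. Olig3 was read at a log2 intensity of 10.57 and 10.52 in the null channels of replicates 1 and 2, and at 10.07 and 10.003 in the wild-type channels. Both null channels lay above both wild-type channels, on arrays of opposite dye. The log2 ratio was 0.50 ± 0.02 (SD, n = 2 arrays), with a 95% interval from 0.37 to 0.63 and an adjusted p of 3.7e-06 in the limma fit of 4 arrays. Olig2 was read at 8.64 and 8.57 in the null and at 8.84 and 8.76 in wild type. Here both null channels lay below both wild-type channels. The log2 ratio was -0.19 ± 0.01 (SD, n = 2), with an interval from -0.32 to -0.06 and a limma adjusted p of 0.0266. Among all genes tested 9.88% were called higher and 14.8% lower at E9.5, so 1 of 9 in each direction is a share near the background. That split of 1696 higher and 2536 lower became 155 and 524 with median centring, and 442 and 1089 with the scanner's own log ratio. The second Olig2 probe, below background, had ratios of -0.12 and -0.24.

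**Figure D1:**
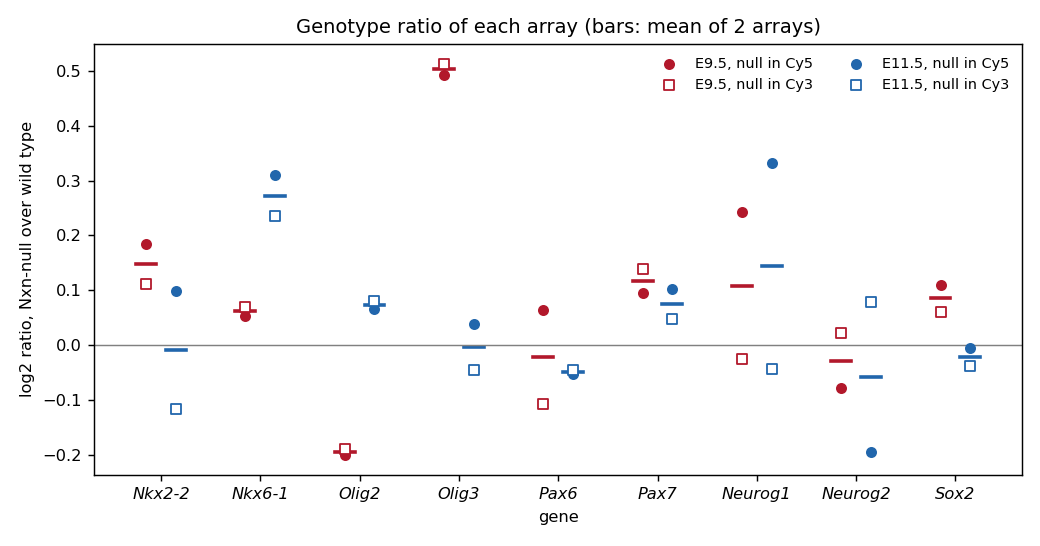
The log2 ratio of null over wild type is plotted for each of the 9 genes, with 1 point per array (filled circles, null in Cy5; open squares, null in Cy3), red for E9.5 and blue for E11.5, and a bar at the mean of 2 arrays. Olig3 stands at 0.49 and 0.51 in E9.5 embryos and around 0 in E11.5 embryos, while Olig2 lies below 0 at E9.5 and Nkx6-1 is highest at E11.5.

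The remaining ventral genes at E9.5 were Nkx2-2, with log2 ratios of 0.18 and 0.11, and Nkx6-1, with 0.05 and 0.07. Both were positive on both arrays, and their limma adjusted p-values were 0.0966 and 0.516. Pax7, the dorsal marker, had ratios of 0.09 and 0.14 (adjusted p = 0.192), and Sox2 had 0.11 and 0.06 (adjusted p = 0.351). The proneural genes had arrays of opposite sign: Neurog1 had 0.24 and -0.03 and Neurog2 had -0.08 and 0.02. For Neurog1 the array with the null in Cy5 was the higher at E9.5 and again at E11.5, and for Neurog2 it was the lower at both stages. For the 7 members that missed the threshold the 95% intervals reached from -0.16 at the lowest to 0.28 at the highest, so ratios of that size are not excluded at this number of arrays. The intervals rest on the spread between arrays, which may be technical, so they do not exclude larger ratios either. Over the alternative processings the E9.5 ratios of these 7 members spanned -0.11 (Pax6) to 0.33 (Pax7).

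Pax6 gave different readings from its 2 usable probes. The brighter probe had ratios of 0.06 and -0.11 at E9.5 (adjusted p = 0.847). The other, which is printed at 10 spots on each array, had 0.30 and 0.07 as the mean over its spots, and its mean ratio of 0.18 had an adjusted p of 0.0470 when every probe was fitted on its own. Its 10 spots spanned 0.27 to 0.33 on replicate 1 and 0.02 to 0.17 on replicate 2, so the arrays differed by more than the spots within an array. The direction of Pax6 at E9.5 thus depended on the probe.

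At E11.5 Nkx6-1 was higher in the null embryos, 1.21-fold, and no other member passed the test. Its log2 intensity was 10.77 and 10.65 in the null channels and 10.46 and 10.41 in the wild-type channels. Both null channels again lay above both wild-type channels. The log2 ratio was 0.27 ± 0.05 (SD, n = 2), with an interval from 0.14 to 0.40 and a limma adjusted p of 0.00611. Among all genes tested 3.67% were called higher and 5.64% lower at E11.5, against 1 and 0 of the 9 members. The split of 629 higher and 968 lower became 119 and 101 with median centring. Olig3, 1.42-fold up at E9.5, had ratios of 0.04 and -0.04 at E11.5, with an interval from -0.13 to 0.13. Its null channels read 9.44 and 9.45 and its wild-type channels 9.40 and 9.498, so the genotypes overlapped. Olig2 had ratios of 0.07 and 0.08 (adjusted p = 0.586).

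The other members missed the threshold at E11.5. Pax6 had ratios of -0.05 and -0.04 and Sox2 of -0.00 and -0.04, each negative on both arrays. Pax7 had 0.10 and 0.05, and Nkx2-2 had 0.10 and -0.12. Neurog1 had 0.33 and -0.04 and Neurog2 had -0.19 and 0.08, with SDs of 0.27 and 0.19 over the 2 arrays, the widest of the 9 members at this stage. Pax7 and Nkx6-1 were the 2 members higher in the null on all 4 arrays, as were 7.59% of all genes tested.

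The calls above depend on how the arrays were processed. With the dye term left out of the fit, the limma adjusted p was 0.0455 for Olig3 and 0.401 for Olig2 at E9.5, and 0.549 for Nkx6-1 at E11.5. With any 1 array left out, no member was called at either stage, although the ratios kept their sign: 0.49 to 0.51 for Olig3, -0.20 to -0.19 for Olig2 and 0.23 to 0.31 for Nkx6-1. The lowest adjusted p for Olig3 with 1 array left out was 0.0726.

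**Figure D2:**
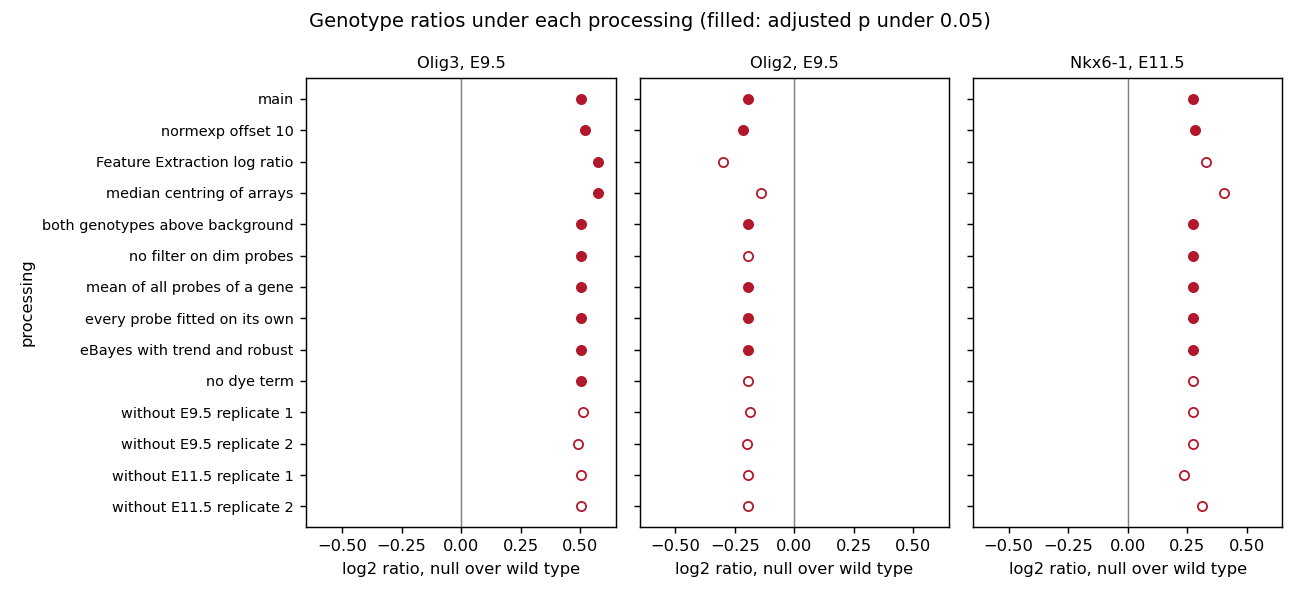
The mean log2 ratio of null over wild type is plotted for Olig3 and Olig2 at E9.5 and for Nkx6-1 at E11.5 (x axes) under each processing and with each array left out (y axis), filled where the limma adjusted p was under 0.05. All 3 genes keep their sign in each of the 14 fits. Their calls are lost with any array left out, in fits that also lack the dye term.

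The genotype ratio differed between the stages for the 2 Olig genes, and in opposite directions. For Olig3 the ratio at E11.5 minus that at E9.5 was -0.50 on the log2 scale (interval -0.69 to -0.32, limma adjusted p = 3.9e-04). For Olig2 it was 0.27 (interval 0.08 to 0.45, adjusted p = 0.0488). Among all genes tested 8.32% had a higher and 5.23% a lower ratio at E11.5, against 1 of 9 members each way. The split of 1427 and 897 became 325 and 78 with median centring, and 420 and 159 with the scanner's log ratio. For Nkx6-1, called at E11.5 and not at E9.5, the difference of 0.21 did not pass the test (interval 0.03 to 0.39, adjusted p = 0.133). The Olig2 difference was lost, at an adjusted p of 0.0699, with a normexp offset of 10, and those of both Olig genes were lost without the dye term. Both were also lost with any array left out, in fits that had no dye term either.

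The test of a genotype ratio common to both stages called no gene. When each stage entered as the average of its 2 arrays, limma called 0 of 9 members and 0% of the 17161 genes, with 1240 genes at an unadjusted p under 0.05. The fit rests on 2 values per gene, and its lowest adjusted p over all genes was 0.395. Even Nxn, with ratios of -0.99 at E9.5 and -1.33 at E11.5, was not called. The test therefore cannot show that common ratios are absent. The largest common log2 ratios among the members were 0.25 for Olig3 (adjusted p = 0.748) and 0.17 for Nkx6-1 (adjusted p = 0.739). None of the 9 members was at least 2-fold apart between genotypes at either stage, the size that the series design asks for at both stages. Over all genes, E9.5 had 15 at least 2-fold higher and 129 lower, and E11.5 had 9 higher and 26 lower. These counts moved with the processing: E9.5 had 130 and 408 with the scanner's log ratio, and E11.5 had 71 and 85 with it and 52 and 33 with an offset of 10. E9.5 had 21 and 213 without its replicate 1 and 44 and 116 without its replicate 2, and E11.5 had 67 and 42 without its replicate 2, while 0 members reached that size in any of these settings.

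The comparison of stages asks how the same genes changed as the embryo grew, with the genotypes as its 2 measurements. Null and wild type of a stage were read on the same arrays, so anything that shifted a whole array moved the 2 measurements together. Such shifts are missing from the error of the stage test, so its p-values do not measure spread between arrays. In both genotypes Olig2, Olig3, Nkx6-1, Pax6 and Sox2 fell from E9.5 to E11.5, while Nkx2-2, Pax7, Neurog1 and Neurog2 did not pass the test. Pax6 fell 1.96-fold and Nkx6-1 fell 1.95-fold, Olig3 1.79-fold, Sox2 1.56-fold and Olig2 1.46-fold, relative to the other genes on the arrays. Among all genes tested 20.5% were called higher and 22% lower at E11.5, against 0 and 5 of the 9 members. The median stage change of the members was -0.55 on the log2 scale and that of all genes -0.03.

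**Figure D3:**
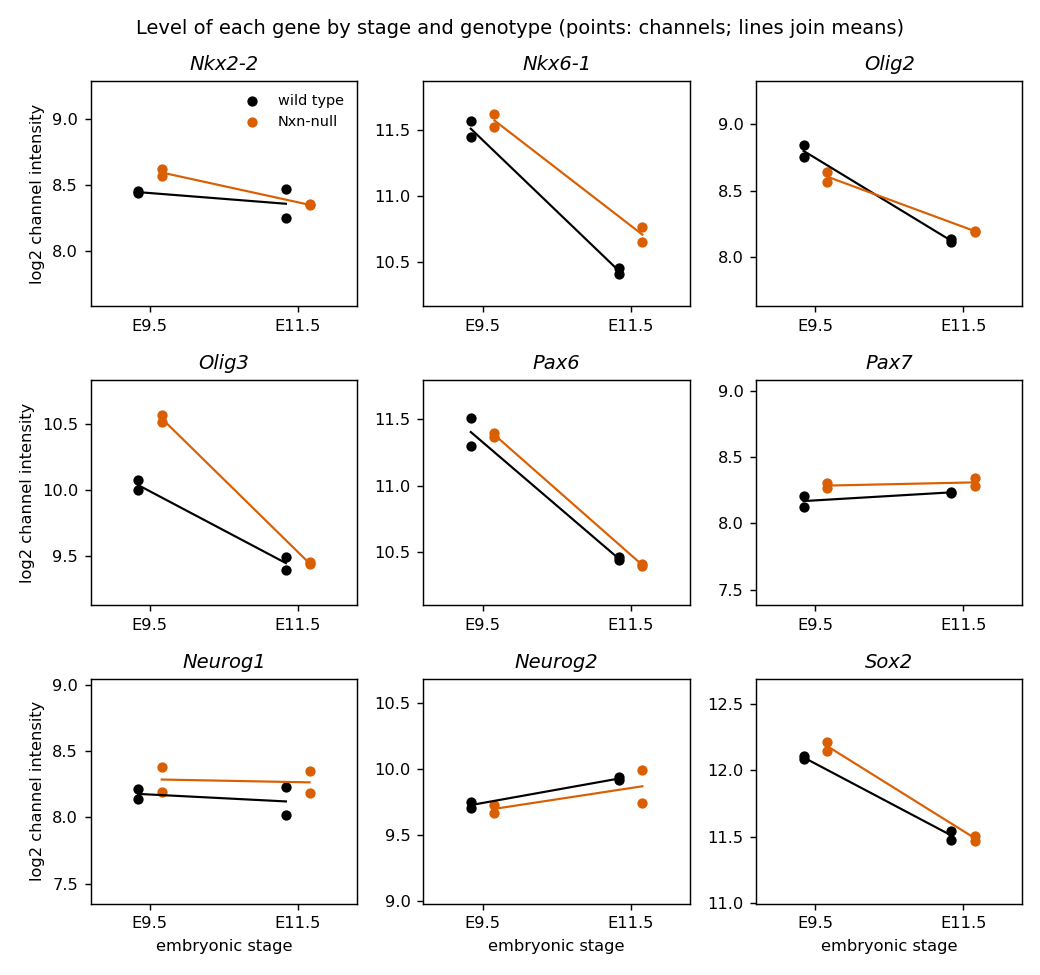
The log2 intensity of each gene is plotted at E9.5 and E11.5 for wild type (black) and null (orange), with 1 point per channel and lines joining the means of 2 channels. All panels span the same range. Pax6, Nkx6-1, Sox2, Olig3 and Olig2 slope down in both genotypes, the lines of Olig2 cross, and those of Olig3 meet at E11.5.

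Pax6 was read at a mean log2 intensity of 11.40 in wild type and 11.38 in null embryos at E9.5, and at 10.45 and 10.40 at E11.5. The 4 channels at E9.5 all lay above the 4 at E11.5. The limma adjusted p was 0.00599 for the change of -0.97, and the second Pax6 probe fell too, by 0.56 (adjusted p = 0.0139). Nkx6-1 went from 11.51 to 10.44 in wild type and from 11.57 to 10.71 in the null (adjusted p = 0.00692). Its decline was 2.10-fold in wild type and 1.82-fold in the null, and the order of its 4 means was null above wild type at each stage. Sox2 went from 12.10 to 11.51 in wild type and from 12.18 to 11.49 in the null (adjusted p = 0.00842).

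Olig3 fell in the null embryos from 10.54 to 9.45, a 2.14-fold decline, and in wild type from 10.04 to 9.45, a 1.505-fold decline (adjusted p for the common change = 0.0189). The highest of its 4 means was the null at E9.5, and the means of the genotypes at E11.5 were alike within the spread of their channels. Olig2 fell in wild type from 8.80 to 8.12, 1.60-fold, and in the null from 8.61 to 8.19, 1.33-fold (adjusted p = 0.0182). Its highest mean was wild type at E9.5. The Olig2 decline missed the threshold, at an adjusted p of 0.0557, when the scanner's own processed signals were used.

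The 4 members whose stage change missed the threshold were read at nearly level values. Nkx2-2 had means of 8.45 and 8.59 in wild type and null at E9.5 and of 8.36 and 8.35 at E11.5 (adjusted p = 0.138). Pax7 lay between 8.17 and 8.31 in all 4 means, and Neurog1 between 8.12 and 8.28. These spans are of the size of the spread between channels. Neurog2 and Pax7 had positive changes, 0.19 (adjusted p = 0.0756) and 0.05 (adjusted p = 0.576). Neurog2 passed the test only when the 4 differences between stages were counted as separate measurements (adjusted p = 0.0201).

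Further genes of these pathways were taken as 3 lists, which are described by counts and medians, with no test of a list. Of 30 listed patterning genes 25 were tested, and 7 were higher and 2 lower at E9.5, against 9.88% and 14.8% of all genes. The median log2 ratio was 0.12, with 19 of 25 above 0, and that of all genes was -0.00. Median centring moved the median of all genes to 0.05 and that of the 9 members from 0.09 to 0.15. The median of this list under that scaling is not given. The largest were Msx2, a roof plate and dorsal midline homeodomain factor (ratios of 0.42 and 0.52, adjusted p = 8.3e-06), Zic2, a dorsal zinc finger factor (0.21 and 0.46, adjusted p = 0.00102), and Emx2, a forebrain factor (0.24 and 0.36, adjusted p = 0.00152). The 3 rose on both arrays. At E11.5, where 3.67% and 5.64% of all genes were called, 2 were higher and 0 lower: Msx2 (0.19 and 0.26, adjusted p = 0.0230) and Nkx6-2, a relative of Nkx6-1 (0.29 and 0.15, adjusted p = 0.0283). Between the stages 13 of the 25 fell and 2 rose (median -0.30), against 22% and 20.5% of all genes. The ventral genes Nkx6-2 (-1.31) and Foxa2 (-1.30) were among those that fell, with limma adjusted p-values of 0.00595 and 0.00637. Nkx2-9, also ventral, was well above background at E9.5 but in no channel at E11.5, so its fall is a bound: at least 2.61-fold in wild type (means of 8.43 and 7.04) and at least 2.56-fold in the null (8.36 and 7.004), with a limma adjusted p of 0.00595. Foxa2, which is also a foregut gene, was with Irx5 one of the 2 patterning genes lower in the null at E9.5 (-0.14 and -0.27, adjusted p = 0.0210).

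Of 23 listed proneural and progenitor genes 22 were tested, and 8 were higher and 0 lower at E9.5 (median 0.15), against 9.88% and 14.8% of all genes. Nhlh2, a bHLH factor of young neurons, had ratios of 0.36 and 0.51 (adjusted p = 2.6e-05). Sox21, a factor of the Sox2 group, had 0.35 and 0.42 (adjusted p = 1.2e-04), and Fabp7, a radial glial fatty acid binding protein, had 0.62 and 0.15 (adjusted p = 1.0e-04). Sox21 has 3 usable probes, all positive at E9.5, of which the lowest had 0.02. At E11.5 none of the 22 was called in the limma fit, at a median of 0.03. Between the stages 7 rose and 6 fell, shares not far from the 20.5% and 22% of all genes, and the largest rises were those of Fabp7 (1.35), Ebf3 (1.01) and Hes6 (0.88). Both Ebf3 probes were positive between stages, at 1.01 and 0.18.

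Of 25 listed genes of domain-specific neurons 20 were tested, and 5 were higher and 0 lower at E9.5, against 9.88% and 14.8% of all genes, with a median of 0.05 and 14 of 20 above 0. Evx2, a V0 interneuron gene, had ratios of 0.45 and 0.19 (adjusted p = 5.6e-04), and Lhx1, a LIM factor of several interneuron classes, had 0.37 and 0.26 (adjusted p = 8.5e-04). Bhlhe22 had 0.42 and 0.07 from its brighter probe, whereas its dimmer probe had a mean of -0.42, so its direction depended on the probe. At E11.5, 3 were higher and 0 lower, against 3.67% and 5.64% of all genes: Sox14, an interneuron factor (0.54 and 0.03), Pou4f1, a sensory neuron factor (0.53 and 0.02), and Lhx1 (0.31 and 0.17). For Sox14 and Pou4f1 nearly all of the ratio came from the array with the null in Cy5, and the second Lhx1 probe had means of -0.02 and -0.20 at the 2 stages. Between the stages 7 of the 20 rose and 3 fell (median 0.06), against 20.5% and 22% of all genes. Lhx1 rose by 1.93 on the log2 scale, or by 1.29 from its second probe, and Lhx5 by 0.91.

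**Figure D4:**
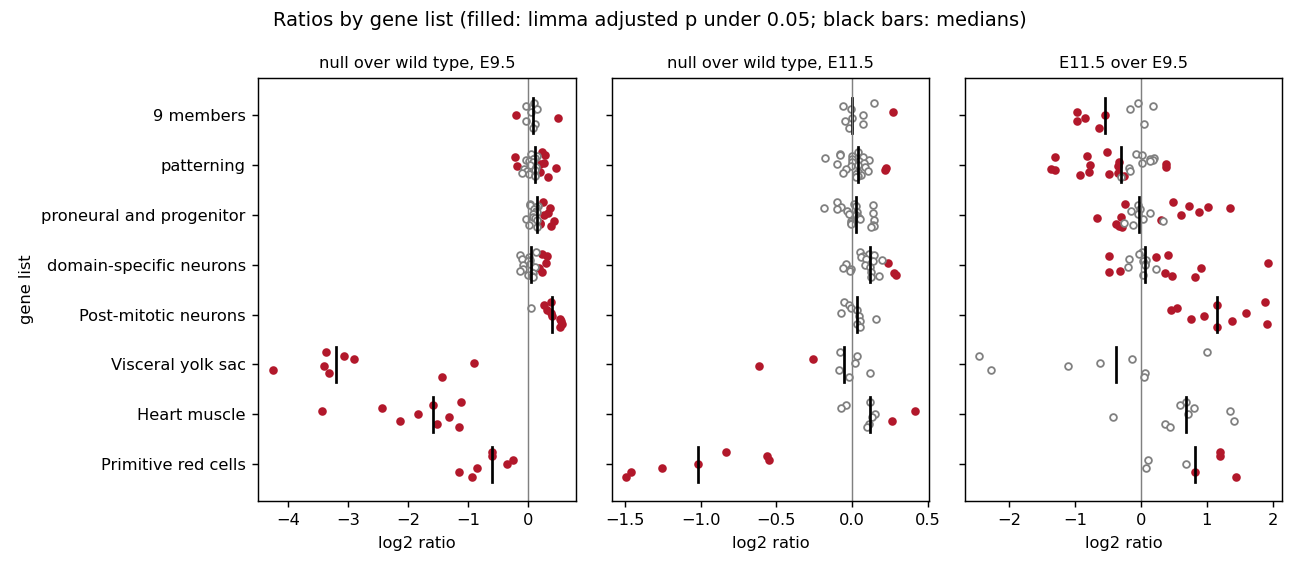
The log2 ratios of null over wild type at E9.5 (left) and E11.5 (middle), and of E11.5 over E9.5 (right), are plotted for the 9 members, 3 context lists and 4 marker lists (y axis), with 1 point per gene, filled where the limma adjusted p was under 0.05, and a black bar at each median. The x axes differ in range. Post-mitotic neuron markers have a median of 0.40 at E9.5, and yolk sac and heart markers lie far to the left.

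Lists of 4 other cell types had median ratios farther from 0 at E9.5 than the members' 0.09. The 10 markers of post-mitotic neurons had a median log2 ratio of 0.40 at E9.5, where 9 passed the test as higher, against 9.88% of all genes. At E11.5, where 3.67% of all genes were called higher, none of these markers passed and their median was 0.03. Their summed intensity was 43515 and 41258 in the null channels and 33418 and 32180 in the wild-type channels at E9.5, a ratio of 1.29, and the ratio was 1.02 at E11.5. The 8 visceral yolk sac markers had a median of -3.19 at E9.5 and a summed ratio of 0.0982, against -0.05 and 0.960 at E11.5. The 9 heart muscle markers had a median of -1.58 (E9.5) and 0.12 (E11.5), with summed ratios of 0.298 and 1.04. The 7 primitive red cell markers were lower at both stages, with summed ratios of 0.562 and 0.418. Of the markers in these 4 lists Apoa4 was the dimmest, well above background in 3 of 8 channels. The part of these differences in the ratios of Olig3, Olig2 and the context lists was not tested.

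Several members are also made outside the neural tube, and the markers of those tissues give their background. Of 5 tested markers of somite and dermomyotome, where Pax7 is made, 1 was higher and 2 were lower in the null at E9.5, with a summed ratio of 0.823. Of 5 tested eye and lens markers, where Pax6 is made, 1 was higher and 1 lower, with a summed ratio of 0.845. The 4 tested endocrine pancreas markers, a tissue of Nkx2-2, Nkx6-1 and Pax6, had a summed ratio of 1.01 in E9.5 and 1.06 in E11.5 embryos. The 4 foregut markers, a tissue of Sox2, had 0.890 and 1.04. The part of these tissues in the members' values was not tested.

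Genes were also ranked by how alike their 8 channel values were to those of each member, as Pearson's r across channels that share arrays, with no test. Olig3 was most like Prl2c5 and Prl2c3, placental hormones of a family with near-identical copies (r = 0.997 and 0.996), and Acot6 (0.994). The mean log2 ratio of Prl2c5 at the earlier stage was 0.90 and at the later -0.02, and its stage change was -1.82. Nkx6-1 was most like Sdad1 and Dusp9 (both 0.998) and Polr1b (0.997), Olig2 like Dnajc3 (0.995), Baiap2l1 (0.994) and M6pr (0.994). Pax6 was most like Oxsm, Sowahc and Asph, and Sox2 like Utp15, Cebpz and Ddias, with r between 0.997 and 0.999. Such values are common for genes that fell between the stages: 2317 genes had an r over 0.9 with Sox2 and 2231 with Pax6. For the 4 members without a called stage change the highest r was lower or rarer: 53 genes passed 0.9 with Pax7 (Ctu1, Zfp874a and Rnf185 first), 57 with Neurog1 (Gbx1, 4933432I09Rik and Kif18b), 88 with Nkx2-2 (Hoxa4, the unnamed transcript NAP030082-1 and Gprc5a) and 115 with Neurog2 (Camsap1, Zfp148 and Plekho1).

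Among the members themselves the 5 that fell with stage moved together over the 8 channels, with r from 0.79 (Olig2 and Olig3) to 0.98 (Pax6 and Sox2). Nkx2-2, whose stage change was not called, had r from 0.58 (Olig2) to 0.88 (Olig3) with these 5. Neurog2 ran the other way, with r between -0.85 and -0.77 against these 5. Pax7 and Neurog1 had r between -0.44 and 0.33 with the same 5 genes. These values describe 8 channels on 4 arrays that fall into 2 stages, so they mostly repeat the stage difference.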

How the data were processed

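Members and gene lists were chosen with earlier results of these data known. Per the file headers, the deposited scanner files hold linear spot intensity and local background in 2 channels from Agilent Feature Extraction (version 9.1.3.1 in the headers, 9.5.3.1 in the submitters' processing notes). Per the file headers they also hold a log10 ratio of the processed signals, used as an alternative. The authors' deposited value table equalled the log10 ratio of null over wild type of those signals within 0.0001 for at least 99.995% of 40929 probes. It was not used further, and its direction is therefore settled and its values not centred again.

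Here, mean intensities were background-corrected by normexp (offset 50) and normalized by loess within arrays, in limma 3.58.1 under R 4.3.3. Levels were log2 channel intensities, put on a common scale by limma's Aquantile method. Replicate spots were averaged, and 293 probes lacking an unmarked spot on some array were dropped. A probe was kept (24994 probes) if, at some stage, both arrays had 1 genotype well above background, and the brightest represented its gene (17161 genes). Names came from the files, updated through a RefSeq table of GRCm38.p6. One fit of 4 arrays gave the ratio at each stage and their difference, with a dye term. It has 1 residual degree of freedom, to which limma's prior added 18.4. Ratios common to the stages, and stage changes common to the genotypes, were fitted on 2 averages each. P-values were adjusted over all genes by Benjamini-Hochberg at 0.05. The fits were tested on simulated data. The arrays' number limits precision. The named context genes are the 3 with the largest called ratio at each stage and the 3 with the largest called stage change in each list, likeness genes are the 3 with the highest r, and the other named genes are members, cell type markers or Nxn. A gene that this rule names is not reported here. Foxa2 and Irx5 at E9.5 were named after their values were seen. Alternatives were other background correction, scaling, probe rules, eBayes settings, no dye term and each array left out.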

Additional observations from a re-analysis of the deposited data

Results flagged for a closer look

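The ratio of null over wild type differed between the stages by limma's test of the difference for 8 of the named genes. Among all genes tested 8.32% had a higher and 5.23% a lower ratio at E11.5. The context genes were named for large called ratios or stage changes in these same data, so a called difference was favoured among them. As E11.5 minus E9.5 on the log2 scale, the difference was 0.27 for Olig2 (adjusted p = 0.0488) and -0.50 for Olig3 (adjusted p = 3.9e-04). Of the patterning genes, it was -0.38 for Emx2 (0.0063), -0.31 for Zic2 (0.0368) and 0.28 for Foxa2 (0.0398), with adjusted p-values in parentheses. It was -0.57 for Fabp7 (9.1e-05) and -0.44 for Nhlh2 (0.0015) of the proneural and progenitor genes, and 0.29 for Sox14 (0.0420) of the domain-specific neuron genes. For Fabp7 the E9.5 ratios were 0.62 and 0.15 and the E11.5 ratios 0.04 and -0.42, with the array that carried the null in Cy5 higher at both stages. For Sox14 the arrays at E9.5 had opposite signs, 0.39 and -0.39. Nhlh2, Zic2 and Emx2 were positive on both arrays at E9.5. A second Emx2 probe had a mean ratio of 0.25 at E9.5 and again at E11.5, so the Emx2 difference depended on the probe.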

How the results depend on the processing

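Over the alternatives tried for the members, 516 values kept their sign and their side of the threshold. A further 38 kept their sign but lost the call, 1 gained it, and 30 uncalled values changed sign. No called value reversed. At E9.5 the count of members called, 2, went to 1 (Olig3 alone) with the Feature Extraction log ratio, with median centring, with no filter on dim probes and with no dye term. At E11.5 the count, 1, went to 0 with the Feature Extraction log ratio, with median centring and with no dye term. For the difference between stages the count, 2, went to 1 (Olig3 alone) with an offset of 10, with no filter, with the mean of all probes and with every probe on its own, and to 0 with the Feature Extraction log ratio, with median centring and with no dye term. With each array left out in turn (replicates 1 and 2 of either stage) the counts ranged from 0 to 0 for all 3. These fits also lose the dye term. The common genotype ratio had 0 members called throughout. The stage change had 4 to 6, with Olig2 lost on the processed signals and Neurog2 gained with 4 separate differences. Over all genes the count called ranged from 265 to 5570 at E9.5 (4232 as reported), from 16 to 2119 at E11.5 (1597) and from 104 to 2924 for the difference (2324), from 0 to 45 for the common ratio (0), and from 4952 to 10687 for stage (7292). Without replicate 1 of E9.5 it was 424 at E9.5, without replicate 2 of E9.5 265, and without either E11.5 array 475. The genes at E11.5 numbered 144 without either E9.5 array, and 16 and 44 without replicates 1 and 2 of E11.5. The cause was not tested. The ratio paired null with wild type within each array. Arrays were not paired across the stages, because the labels give no replicate numbers. The numbers used here name the dye orientation of an array, which the dye term of the fit takes up.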
